A study of Mus musculus with 8 samples.

Results

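The 35 genes described here encode proteins of myelin and of the mature oligodendrocytes that make it. They were taken by name, and each was given 2 windows on the mm10 genome. The TSS window runs 1 kb to each side of the transcription start site (TSS) of the gene's principal coding transcript, and the body window covers the gene with 5 kb to each side. All 35 were found among the 21646 protein-coding genes annotated on chromosomes 1 to 19 and X, and all 35 passed the filter on low values in both windows. By role, 13 are structural and membrane proteins of myelin, 4 act at axoglial contacts, nodes and junctions, 5 in lipid and acetate metabolism, 2 are receptors, 10 are enzymes, carriers, signalling proteins and others, and 1 is a transcription factor.

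Myelin is a stack of oligodendrocyte membrane wrapped around axons, compacted from within by basic proteins and rich in galactolipids. Its genes are switched on together when an oligodendrocyte precursor matures, under factors that include SOX10 and MYRF. SOX9, a relative of SOX10 that recognises similar DNA, is present in astrocytes and in precursors of the lineage and is known to decline as oligodendrocytes mature.

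SOX9 was mapped by CUT&Tag, in which antibodies tether a transposase to chromatin so that nearby DNA is cut out and sequenced. Nuclei came from spinal cord segments of wild-type (WT) C57BL/6 mice. The animals entered the study at 8 to 12 weeks by its methods, while its reporting summary gives a wider range of ages. Mice were either uninjured or taken 1 day after a contusion of the cord (1 d.p.i.), and in each condition 1 sample was male (M) and 1 female (F). Every sample gave a library with the SOX9 antibody and a control library with the secondary antibody alone, which makes 8 libraries in 4 groups of 2. The sample labels give a sort of the nuclei on a DNA dye alone, while the methods refer back to a sort that also used antibodies to NEUN or SOX10, a marker of the oligodendrocyte lineage. Whether such a gate was used here is not stated, and a change in the number of oligodendrocytes cannot be told apart from a change in each of them. The methods mention pooling of animals per condition, so the number of mice behind a library is not known here, and p-values measure only the spread between libraries.

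Coverage is given per base as a multiple of the mean coverage of the same library. The SOX9 libraries held 1869806 (uninjured M), 7209462 (uninjured F), 2513522 (injured M) and 2381412 (injured F) fragments. The controls held 22707 (uninjured M), 46637 (uninjured F), 52684 (injured M) and 10892 (injured F). A TSS window at the library mean thus holds between 1.42 and 5.47 fragments of a SOX9 library, and the uninjured F library is the most precise. Coverage of the Y chromosome was 0.323 and 0.182 times the library mean in the M libraries with SOX9 antibody and 0.0282 and 0.0408 times in the F libraries. Among the controls it was 0.0581 (uninjured M), 0.0627 (uninjured F), 0.0769 (injured M) and 0.0371 (injured F), which does not separate the sexes. Coverage of the X chromosome over that of the autosomes in the SOX9 libraries was 0.347 (uninjured M), 0.276 (uninjured F), 0.283 (injured M) and 0.386 (injured F), which does not separate them either.

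The controls also stand apart in another way. Of the control fragments that could be read singly, between 82.4% and 93.6% had a start and an end that were both fragment ends in a SOX9 library. For the SOX9 libraries, set against the other SOX9 libraries, this share was between 1.65% and 3.99%, and for control positions moved by 1000 bp it was at most 0.0430%. In the body windows of the myelin genes 354 of 390 such control fragments (90.8%) were shared. Whether the shared fragments are molecules of the SOX9 libraries was not tested, and the ratios of SOX9 to control coverage given here are not ratios to an independent background.

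SOX9 coverage over the myelin genes was high in all 4 SOX9 libraries. In the TSS window the median of the 35 genes was 6.70 (uninjured M), 12.4 (uninjured F), 10.5 (injured M) and 7.78 (injured F) times the library mean. For the 21611 other protein-coding genes the medians in the same order were 2.83, 4.72, 3.68 and 3.28. In each library the median of the myelin genes was thus between 2.37 and 2.85 times that of the other genes. Their body medians were 3.73, 4.51, 4.35 and 4.37, against 1.44, 1.62, 1.52 and 1.5 for the others. The order of the conditions was not the same in M and F libraries, whereas the excess over other genes was present in all 4.

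Each gene was also ranked among other protein-coding genes of like length (a ratio of at most 5 to 4). In the TSS window 28 of the 35 lay above the median of genes of like length, 21 of them in every SOX9 library, and 10 lay at or above percentile 90. By body coverage 32 lay above the median, 29 in every SOX9 library, and 16 lay at or above percentile 90. The median percentile was 79.6 in the TSS window and 87.9 in the body window. With the bases of the principal TSS window taken out of the body window it was 88.7, though other annotated starts of the genes stayed in. The ranking of the 35 genes was alike between libraries, with Spearman's rho across genes from 0.806 to 0.932 in the TSS window and from 0.935 to 0.980 in the body window. Genes are not replicates, and all other protein-coding genes gave similar values, from 0.841 to 0.934 and from 0.943 to 0.972.

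**Figure D1:**
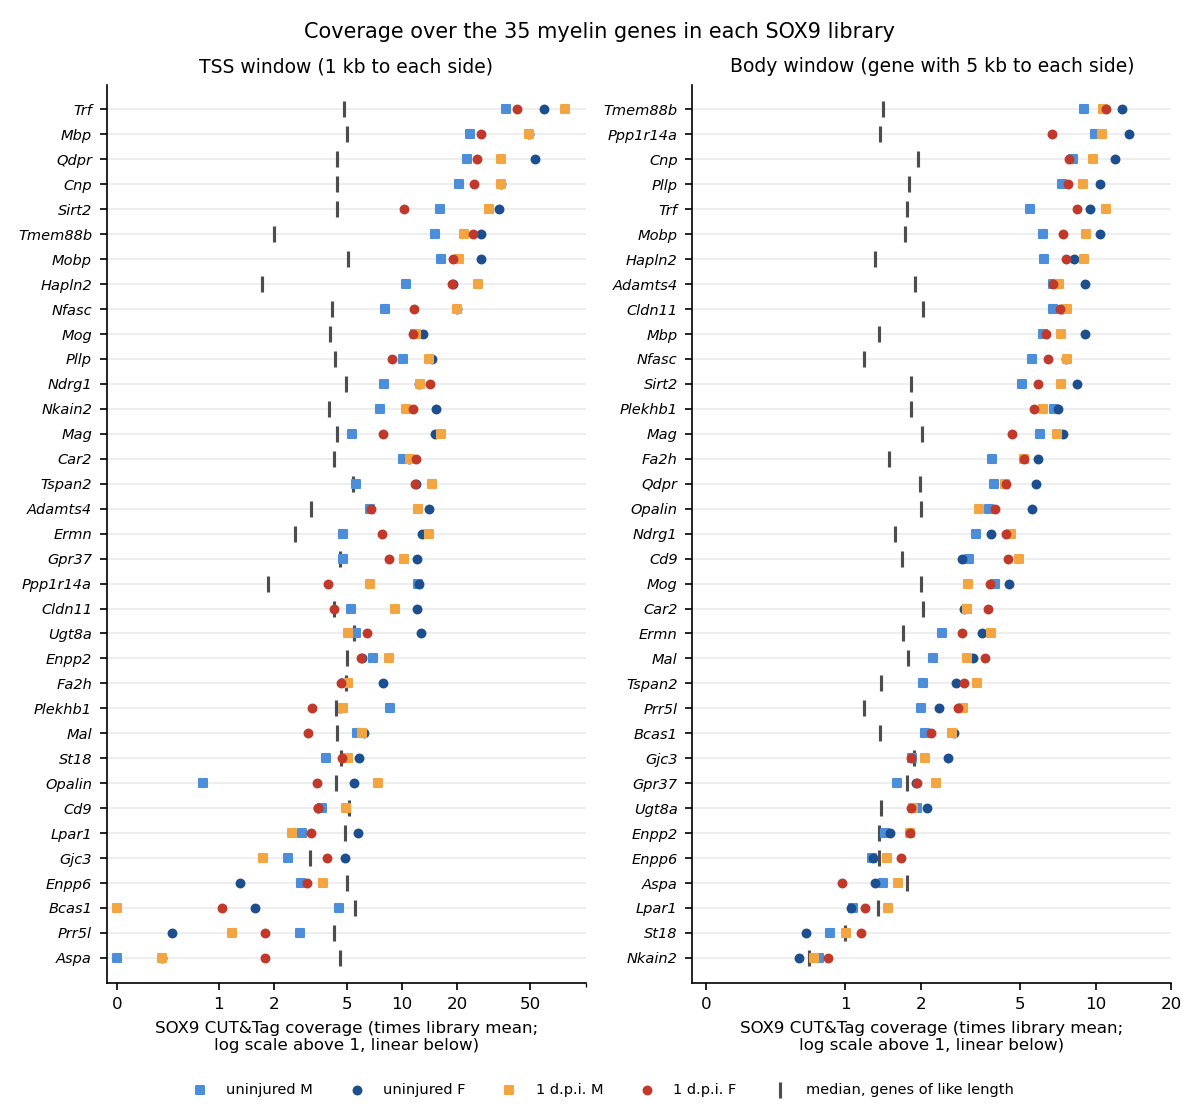
Coverage of the TSS window (left) and body window (right) of each of the 35 myelin genes, in multiples of the library mean, with 1 point per SOX9 library and a grey bar at the median of genes of like length. Trf has the highest TSS coverage and Aspa the lowest, and in the body window 32 of 35 genes have a mean above the bar.

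Other gene lists place these levels. Genes that regulate the oligodendrocyte lineage, such as Sox10 and Olig2, had medians of 5.96 in the TSS window and 5.24 in the body window over 12 genes, and 10 markers of oligodendrocyte precursors had 3.48 and 1.62. The 20 markers of astrocytes, which carry SOX9 in the adult cord, had medians of 5.08 and 2.1. In each library the median of the myelin genes was between 1.63 and 2.92 times that of the astrocyte markers in the TSS window and between 1.78 and 2.24 times in the body window. In body coverage not matched for gene length, the lineage regulators were above the myelin genes, which had a median of 4.02. By library the regulators had medians of 4.65 (uninjured M), 6.52 (uninjured F), 5.63 (injured M) and 4.10 (injured F), higher than those of the myelin genes in 3 of 4 libraries. Neuronal synapse genes (20) had 7.77 and 1.57, microglial and macrophage genes (15) 2.1 and 2.34, ependymal genes (10) 2.93 and 1.72, and endothelial and mural genes (10) 1.55 and 0.823. These lists differ in gene length, with a median of 11014 bp for the regulators and 24605 bp for the myelin genes. Among genes of like length the median body percentile was 87.9 for the myelin genes and 86.7 for the regulators. It was 58.7 for precursor, 67.0 for astrocyte, 67.8 for synapse, 59.3 for microglial, 45.6 for ependymal and 22.4 for endothelial and mural genes. The difference between lists was not tested.

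The secondary-only controls had coverage over the myelin genes as well. Coverage was summed over the 35 body windows, so that long genes weigh most and the sum differs from the median gene. With the SOX9 antibody it was 2.25 (uninjured M), 2.81 (uninjured F), 2.80 (injured M) and 2.58 (injured F) times the library mean. In the paired controls it was 2.87 (uninjured M), 2.66 (uninjured F), 2.27 (injured M) and 2.25 (injured F) times. The SOX9 and control values thus overlapped without injury, and both injured SOX9 libraries were above their controls in these windows. The 95% Poisson interval of the injured F control, 1.54 to 3.18 from 32 fragments, held the SOX9 value of injured F. That of the injured M control, 1.93 to 2.65 from 161 fragments, did not hold the SOX9 value of injured M. SOX9 coverage over the pooled controls was 0.926 for uninjured cords (95% Poisson interval 0.815 to 1.06, from 236 control fragments) and 1.19 at 1 d.p.i. (1.03 to 1.37, from 193). The intervals cover counting error only. Against its own control the uninjured ratio was 0.784 in M and 1.05 in F. In the TSS windows the ratios were 0.807 (0.571 to 1.18, from 32 control fragments) and 1.13 (0.731 to 1.85, from 20). Against its own control in these windows the uninjured M library was lower (0.536) and the uninjured F library higher (1.08), while the injured M library was higher (1.38) and the injured F library lower (0.788), and the 2 conditions could not be told apart at this depth. Control fragments that shared no ends with a SOX9 library were few, 36 in the body windows of the 35 genes, where their density was 1.80 times the genome mean (1.26 to 2.49). Set against these alone, in a comparison chosen after seeing the data, the SOX9 ratios were 1.21 for uninjured cords (0.805 to 1.91, from 23 control fragments) and 1.87 at 1 d.p.i. (1.1 to 3.52, from 13), with intervals that overlap. This filter removes control fragments that match a SOX9 fragment, and such matches can be more frequent where SOX9 coverage is high. SOX9 coverage itself was not filtered, so these ratios cannot show an excess over control.

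Tested gene by gene with limma over 19839 body windows, SOX9 coverage exceeded control coverage at 3590 genes (18.1% of those tested) and at 1 of the 35 myelin genes, a share under the background. That gene is Plekhb1, whose product carries a pleckstrin homology domain, at an adjusted p of 0.00496. Its control body coverage was 3.31 (uninjured M), 3.69 (uninjured F), 0 (injured M) and 0 (injured F) times the library mean, from 3 control fragments against 1000 with SOX9 antibody. The fitted difference thus depends on the 0.5 added before logs, and no size is given for it. After thinning to the depth of the paired control 0 genes passed by limma (none of the 35). With the nuclei sample as a block 3363 of the 19839 genes passed, and 0 of the 35 did. The SOX9 libraries were between 47.7 and 219 times as deep as their controls, and the part of depth in the number of calls was not tested apart from that thinning.

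Coverage in the TSS windows spanned from 0.670 to 53.8 times the library mean over the 35 genes. The highest was Trf, which encodes the iron carrier transferrin, made in the nervous system mostly by oligodendrocytes. Its window on chromosome 9, around position 103230273, had TSS coverage of 36.9 (uninjured M), 59.1 (uninjured F), 77.0 (injured M) and 42.2 (injured F) times the library mean. An overlapping coding gene, Gm20425, starts within the same window, and their coverage cannot be separated. Qdpr, which encodes the reductase that recycles tetrahydrobiopterin, had 22.5 (uninjured M), 52.8 (uninjured F), 34.8 (injured M) and 25.7 (injured F) times. Sirt2, a deacetylase abundant in myelin, had 16.1 (uninjured M), 33.5 (uninjured F), 29.7 (injured M) and 10.2 (injured F) times. Its window also holds the start of Nfkbib. In all 3 genes the uninjured values overlapped those at 1 d.p.i., and every library was above the median of genes of like length, which lay between 4.43 and 4.84.

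Among the structural genes, Cnp, the gene of a phosphodiesterase that helps to keep cytoplasmic channels in myelin open, had TSS coverage of 20.5 (uninjured M), 34.4 (uninjured F), 34.6 (injured M) and 24.7 (injured F) times the library mean. Tmem88b, which encodes a transmembrane protein, had 15.1 (uninjured M), 26.7 (uninjured F), 21.7 (injured M) and 24.3 (injured F) times. The uninjured and injured values overlapped in both genes. The 13 structural genes had a median TSS coverage of 11.1 and ran from 3.89 at Cd9 to 37.2 at Mbp, and 11 of them lay above the median of genes of like length. All 13 did so by body coverage, with a median coverage of 6.26.

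The other roles hold few genes each, and differences between roles were not tested. The 4 genes of axoglial contact had a median coverage of 13.0 in the TSS window and 4.45 in the body window, led at the TSS by Hapln2 with 18.5, which encodes a link protein of the hyaluronan matrix at nodes of Ranvier, and by Nfasc with 14.8, the adhesion gene neurofascin. The 5 genes of lipid and acetate metabolism had medians of 5.60 and 1.65, with none at or above percentile 90 in the TSS window. Ugt8a, which makes the galactolipid precursor of myelin, had a mean TSS coverage of 7.43, and Fa2h, which hydroxylates its fatty acids, 5.60. The receptors Gpr37 and Lpar1 had TSS means of 8.86 and 3.57, and the transcription factor gene St18 4.84.

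At the low end stood Aspa, Prr5l and Bcas1. Aspa encodes the enzyme that frees acetate from N-acetylaspartate, and its TSS window had 0 fragments in uninjured M, 0.447 times the library mean in uninjured F, 0.442 times in injured M and 1.79 times in injured F. The Aspa window also holds 2 coding starts that are not its own, and their coverage was not separated. At the depth of the uninjured M library a count of 0 allows up to 2.1 times the mean. Prr5l, whose product associates with an mTOR complex, had 2.77 (uninjured M), 0.540 (uninjured F), 1.18 (injured M) and 1.79 (injured F) times. These low values rest on 9 fragments at Aspa and 14 at Prr5l over the 4 libraries, against a median of 120 over the 35 genes.

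The body window spread the genes less, from 0.783 to 10.8 times the library mean. Body windows of 8 of the 35 genes hold the coding start of another gene, Tmem88b among them, and such coverage was not separated. Tmem88b, which spans 4284 bp, so that most of its window is flank, was the highest, with 8.93 (uninjured M), 12.7 (uninjured F), 10.6 (injured M) and 10.9 (injured F) times the library mean. Cnp had 8.08 (uninjured M), 11.9 (uninjured F), 9.74 (injured M) and 7.81 (injured F) times. Pllp, the gene of the proteolipid plasmolipin, had 7.33 (uninjured M), 10.4 (uninjured F), 8.91 (injured M) and 7.75 (injured F) times. In each of these genes the uninjured F library was the highest, and the values of the conditions overlapped. Ppp1r14a, an inhibitor of myosin phosphatase, had 9.91 (uninjured M), 13.5 (uninjured F), 10.6 (injured M) and 6.71 (injured F) times, also with overlap. The lowest were the longest genes. Genes of like length had median body coverage of 0.742 and 0.995, near the means of 0.783 (Nkain2) and 0.939 (St18). Nkain2, which spans 1201153 bp and encodes a partner of the sodium pump, had 0.811 (uninjured M), 0.669 (uninjured F), 0.777 (injured M) and 0.875 (injured F) times. St18 had 0.890 (uninjured M), 0.717 (uninjured F), 1.00 (injured M) and 1.1 (injured F) times.

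Averaged over the 35 genes, coverage peaked in the 250 bp just before the TSS at 25.4 times the library mean and was 6.20 times in the bin 5 kb before it. The other protein-coding genes peaked in the same bin at 11.6 times and had 1.77 times 5 kb before the TSS, and the astrocyte markers had 11.3 and 1.44 times. Peak height over the myelin genes was 15.6 (uninjured M), 36.6 (uninjured F), 30.3 (injured M) and 19.2 (injured F) times. The peak of the uninjured M library was the lowest, as it was over the other genes with 7.83 times.

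**Figure D2:**
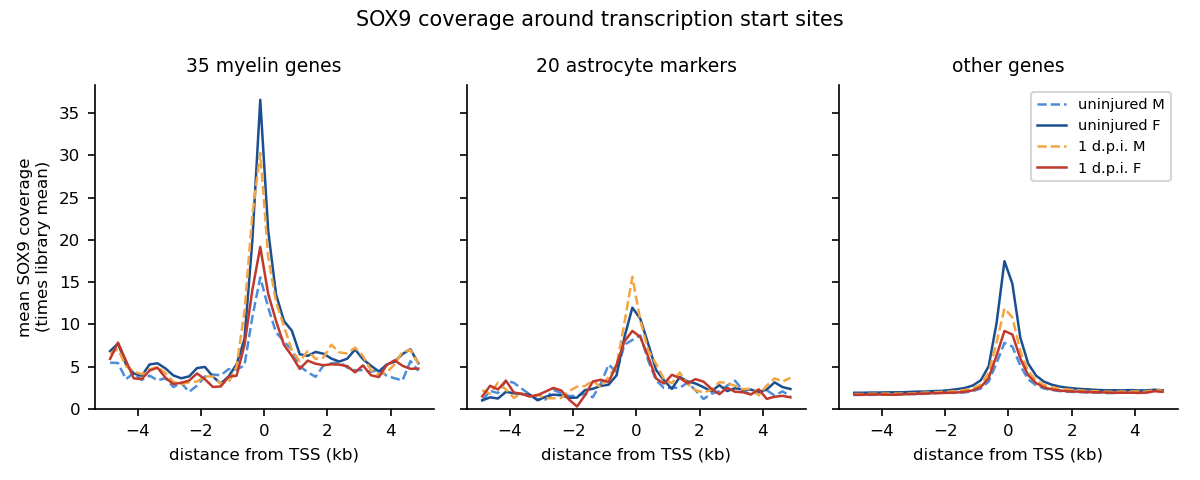
Mean SOX9 coverage in bins of 250 bp from 5 kb before to 5 kb after the TSS, in multiples of the library mean, for the 35 myelin genes, 20 astrocyte markers and all other protein-coding genes, with 1 line per SOX9 library. The myelin genes peak at 15.6 to 36.6 times the library mean just before the start and are above the other genes on both flanks.

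CpG-poor start sites, with a CpG ratio under 0.3, were present at 13 of the 35 myelin genes and at 7334 of the 21611 others. CpG-rich starts are open in most cells, and TSS coverage of the other genes followed the CpG ratio, the observed over the expected number of CG dinucleotides in the window. It had a median of 0.237 times the library mean for CpG ratios under 0.1 and 9.17 times for ratios of 0.8 or more. The 13 CpG-poor myelin genes had a median TSS coverage of 9.81, near the 9.90 of the 22 CpG-richer ones. The 7334 other genes with a CpG ratio under 0.3 had a median of 0.627, a ratio of 15.6, whereas above 0.3 the ratio of the medians was 1.52. These other genes include 1407 with ratios under 0.1, where no myelin gene lies. The medians of myelin and other genes were 11.1 and 0.566 for ratios from 0.1 to 0.2, and 7.05 and 1.31 from 0.2 to 0.3.

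The excess at CpG-poor starts was seen in every SOX9 library. The median of the 13 genes was 4.73 (uninjured M), 12.8 (uninjured F), 11.9 (injured M) and 6.77 (injured F) times the library mean. The other CpG-poor genes had 0.622 (uninjured M), 0.472 (uninjured F), 0.572 (injured M) and 0.639 (injured F) times. Of the 13, 5 had a mean over 10 times the library mean, as did 78 (1.06%) of the others. These 5 were Tmem88b (22), Mobp (20.7), Hapln2 (18.5), Mog (12) and Mag (11.1). Mobp encodes a small basic protein of compact myelin, Mog a glycoprotein of the outermost myelin surface and Mag an adhesion protein of the membrane facing the axon. The 8 astrocyte markers with a CpG ratio under 0.3 had a median of 5.90, so a high level at CpG-poor starts was also present in that list. Ranked among genes whose CpG ratio was within 0.05 of their own, 30 of the 35 myelin genes lay above the median and 14 at or above percentile 90, with a median percentile of 80.2.

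**Figure D3:**
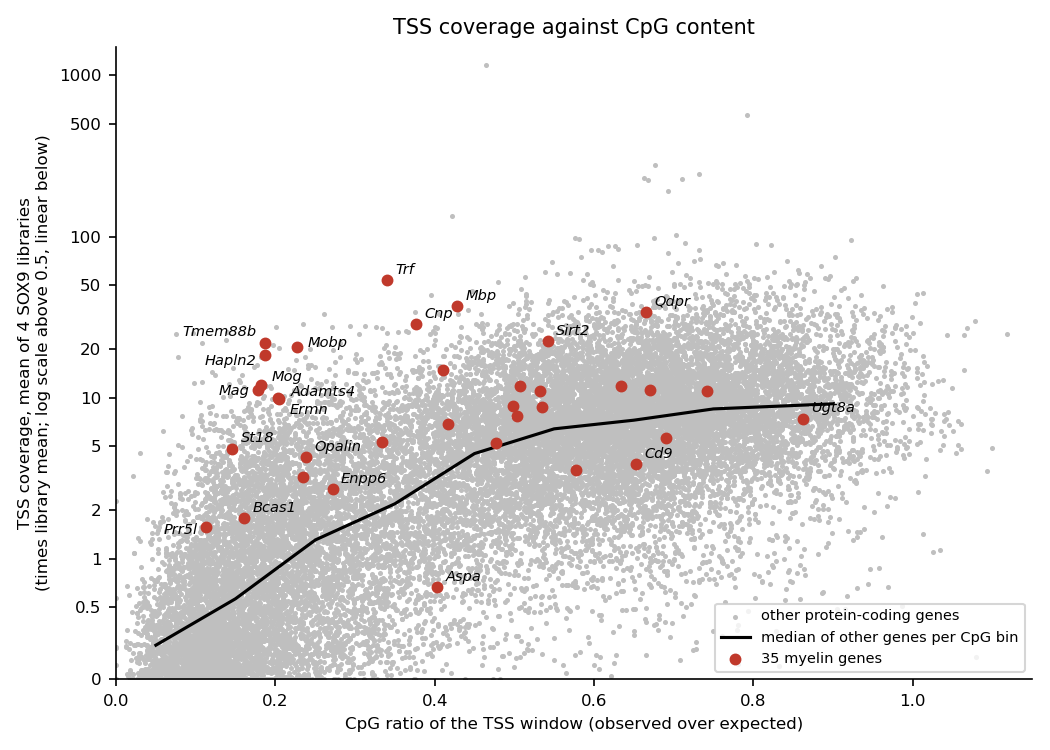
Mean TSS coverage over the 4 SOX9 libraries, in multiples of the library mean, against the CpG ratio of the TSS window, for the 35 myelin genes (red) and all other protein-coding genes (grey), with the median of the other genes in bins of the CpG ratio (line). Tmem88b, Mobp, Hapln2, Mog and Mag lie over 10 times the library mean at CpG ratios under 0.3, where the other genes have a median of 0.627.

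The sequence of these starts was read from RefSeq (build GRCm38.p6), whose promoter table held 26 of the 35 genes. There was no entry for Mbp, Fa2h, Enpp2, Bcas1, Trf, Car2, Ndrg1, St18 and Adamts4. The SOX motifs searched were AACAAAG and AACAATG on either strand (CTTTGTT and CATTGTT on the other). AP-1 motifs were searched as TGAGTCA and TGACTCA, which are each other's reverse complement, and no AP-1 motif is also a SOX motif. In the whole TSS window a SOX motif was found in 19 of the 35 genes (54.3%) and in 48.0% of the others, and an AP-1 motif in 3 (8.57%) and in 24.1%. The 26 genes with an entry had 35 RefSeq promoters, some genes having more than 1. In the 250 bases before the start, 6 of these 35 promoters (17.1%) and 8.12% of all 32851 promoters held a SOX motif. A match describes letters only.

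5 of these genes are shown to let the CpG-poor starts be compared with a CpG-richer one and the starts of a single gene with each other. Each sequence is the 250 bases before the RefSeq start, 5′ to 3′ on the strand of the gene, and capitals mark SOX motifs (7 letters) and CG dinucleotides. Cnp (chr11:100574689-100574938, plus strand) has 13 CG and 1 SOX motif, and its mean coverage over the 4 SOX9 libraries was 24.8 times the library mean in these bases. Mobp (chr9:120149492-120149741, plus strand) has 4 CG and 4 SOX motifs at a mean of 58.7, and it was the only one of the 32851 promoters with 4 or more, a count made after its sequence was seen. Tmem88b (chr4:155785875-155786124, minus strand) has 3 CG and 1 SOX motif at 42.5. Hapln2 (chr3:88027512-88027761, minus strand) has 2 CG and 0 SOX motifs at 47.8. The outer Prr5l start (chr2:101883028-101883277, minus strand) has 1 CG and 2 SOX motifs at 48.4, and the inner one (chr2:101838981-101839230, minus strand) 2 CG and 0 SOX motifs at 0.30. High coverage was thus present with and without a SOX motif.
Cnp: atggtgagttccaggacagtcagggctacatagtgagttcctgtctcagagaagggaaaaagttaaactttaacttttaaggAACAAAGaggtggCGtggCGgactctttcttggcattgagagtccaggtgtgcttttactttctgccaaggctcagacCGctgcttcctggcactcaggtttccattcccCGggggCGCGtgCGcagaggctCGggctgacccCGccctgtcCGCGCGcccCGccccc
Mobp: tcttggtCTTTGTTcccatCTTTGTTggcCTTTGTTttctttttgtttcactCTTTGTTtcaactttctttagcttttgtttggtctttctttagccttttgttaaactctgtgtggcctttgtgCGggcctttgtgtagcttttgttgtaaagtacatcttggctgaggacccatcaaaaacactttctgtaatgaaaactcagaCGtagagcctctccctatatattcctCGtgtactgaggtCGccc
Tmem88b: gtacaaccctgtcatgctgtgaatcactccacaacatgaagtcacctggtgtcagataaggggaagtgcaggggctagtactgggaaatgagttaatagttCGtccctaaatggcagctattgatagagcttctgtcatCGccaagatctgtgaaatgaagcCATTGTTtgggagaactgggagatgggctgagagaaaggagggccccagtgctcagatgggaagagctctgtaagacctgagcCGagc
Hapln2: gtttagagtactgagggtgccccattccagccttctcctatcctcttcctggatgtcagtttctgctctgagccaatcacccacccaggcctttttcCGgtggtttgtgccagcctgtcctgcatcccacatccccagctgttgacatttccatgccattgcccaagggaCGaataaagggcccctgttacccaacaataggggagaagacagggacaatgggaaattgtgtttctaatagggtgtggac
Prr5l outer: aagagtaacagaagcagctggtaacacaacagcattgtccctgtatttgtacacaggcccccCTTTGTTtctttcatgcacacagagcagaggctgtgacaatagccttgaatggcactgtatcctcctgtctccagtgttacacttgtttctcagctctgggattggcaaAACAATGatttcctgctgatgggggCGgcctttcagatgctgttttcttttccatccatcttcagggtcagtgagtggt
Prr5l inner: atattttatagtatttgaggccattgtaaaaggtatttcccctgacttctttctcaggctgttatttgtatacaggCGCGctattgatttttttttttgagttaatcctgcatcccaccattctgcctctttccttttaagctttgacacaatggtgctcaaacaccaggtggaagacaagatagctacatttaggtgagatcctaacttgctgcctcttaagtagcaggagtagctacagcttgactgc

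Several genes with low values had higher coverage at another start. Coding transcripts of 21 of the 35 genes begin at more than 1 site when starts less than 500 bp apart are joined, and at 4 of them (Aspa, Bcas1, Plekhb1 and Prr5l) another start had over 2 times the mean coverage of the principal one. At Aspa that start had 1.90 (uninjured M), 1.38 (uninjured F), 4.84 (injured M) and 0 (injured F) times the library mean. It was thus under the principal start in injured F. At the outer start of Prr5l, 44034 bp from the principal one on chromosome 2 at position 101883014, coverage was 8.11 (uninjured M), 17.9 (uninjured F), 24.7 (injured M) and 17.9 (injured F) times the library mean. All 4 values exceeded those of the principal start, which lay between 0.540 and 2.77. Bcas1, a gene of oligodendrocytes that are beginning to myelinate, has an inner start at position 170406509 of chromosome 2, where coverage was 5.82 (uninjured M), 13.2 (uninjured F), 16.7 (injured M) and 8.39 (injured F) times. Its principal start, 21319 bp away, had 4.51 times in uninjured M, 1.58 times in uninjured F, 0 fragments in injured M and 1.04 times in injured F, where a count of 0 allows up to 1.57 times. In both genes the annotated principal start was the lower one in every SOX9 library.

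**Figure D4:**
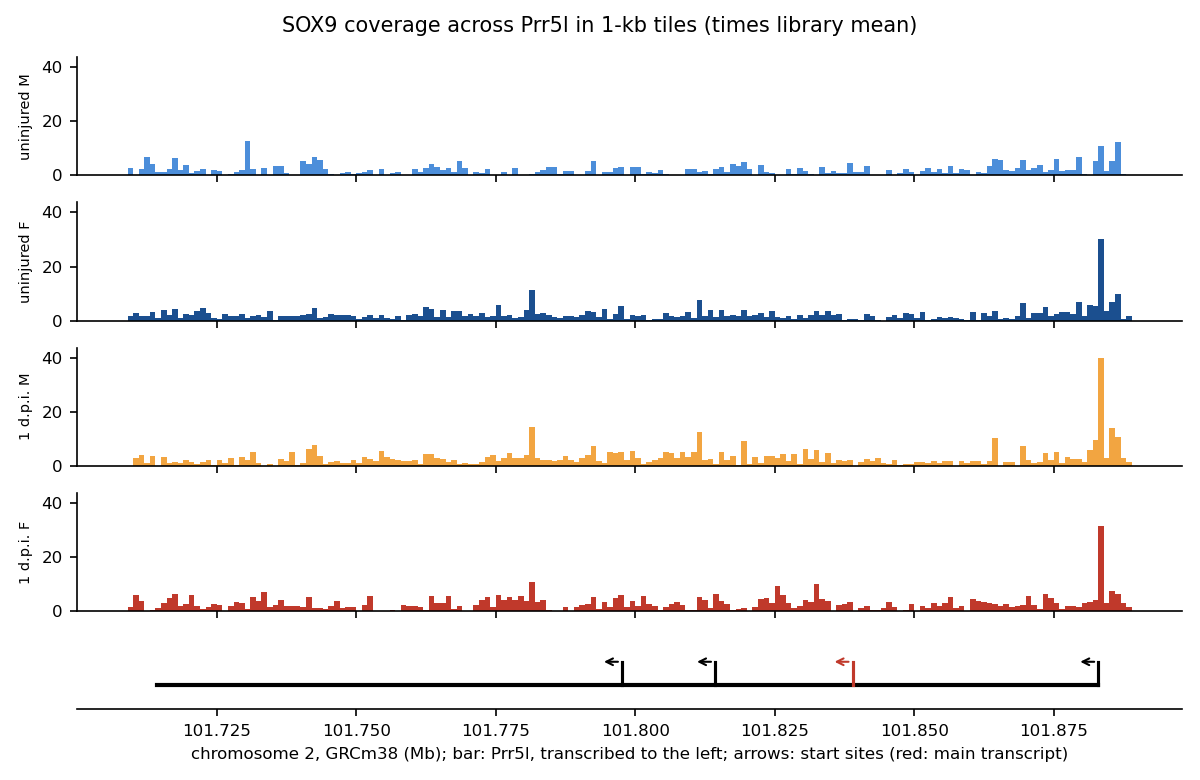
SOX9 coverage in tiles of 1 kb across Prr5l on chromosome 2 (GRCm38), in multiples of the library mean, with 1 row per SOX9 library, the gene as a black bar and the starts of its coding transcripts as arrows. The tile at the outer start reaches 30.4 to 39.8 times the library mean in uninjured F and both libraries at 1 d.p.i. and 10.8 times in uninjured M, and the principal start (red) stays low.

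Starts of the same gene also differed at Mbp and Nfasc. Mbp encodes the basic protein that compacts myelin, and its locus has an upstream start for the longer golli transcripts. At the classic start, position 82554530 of chromosome 18, coverage was 23.5 (uninjured M), 49.0 (uninjured F), 49.4 (injured M) and 26.9 (injured F) times the library mean. At the upstream start, 79384 bp away, it was 4.03 (uninjured M), 6.05 (uninjured F), 4.97 (injured M) and 5.39 (injured F) times. The classic start was above the upstream one in each of the 4 libraries, and the ranges of these starts over the libraries did not overlap. Nfasc, which gives a glial and a neuronal form of neurofascin, had 14.8 times at its principal start and 19.9 and 9.52 times at its inner ones, as means of the 4 libraries.

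Coverage within the body windows was not confined to starts. In each body window the tile of 1 kb with the highest coverage in uninjured F, the deepest library, was taken, and its values in the other 3 SOX9 libraries were read as a description. The tile overlapped an annotated coding start of the gene at 15 of the 35 genes and lay more than 5 kb from any at 9, and it lay in an exon at 19 genes, in an intron at 9 and between genes at 7. At 12 genes it was the highest tile in all of the other 3 libraries, and at 23 it was among the top 3 in each, out of a median of 36 tiles. Of these tiles 57.1% held a SOX motif, and of all 3442 tiles in the windows 39.9%.

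The distal tiles belonged to genes of different roles. At Cldn11, the gene of the claudin that seals the layers of myelin, the tile lay 1677 bp past the end of the gene on chromosome 3 (31166001 to 31167000) and had coverage of 39.8 (uninjured M), 67.3 (uninjured F), 48.0 (injured M) and 52.5 (injured F) times the library mean, while the TSS window of the gene had a mean of 7.67. At Cd9, a tetraspanin, it lay in an intron 26791 bp from the start on chromosome 6 (125467001 to 125468000), with 16.8 (uninjured M), 41.1 (uninjured F), 50.7 (injured M) and 33.4 (injured F) times. At Fa2h it lay in an intron 39824 bp from the start on chromosome 8 (111353001 to 111354000), with 18.3 (uninjured M), 51.6 (uninjured F), 42.3 (injured M) and 37.6 (injured F) times. All of these exceeded the TSS coverage of their genes in each of the 3 libraries not used to choose them. The measures are unlike, since each tile is a chosen maximum of 1 kb and TSS coverage a mean over 1 kb to each side. At Mog the tile lay 4603 bp before the gene on chromosome 17 (37028001 to 37029000), with 20.5 (uninjured M), 24.3 (uninjured F), 19.6 (injured M) and 20.5 (injured F) times. A tile with no annotated exon was also the highest at Opalin, where the intronic tile had 18.5 (uninjured M), 42.5 (uninjured F), 26.3 (injured M) and 16.3 (injured F) times.

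The design asks whether SOX9 coverage changed 1 day after injury. In the TSS window 0 of the 35 myelin genes changed by limma at an adjusted p under 0.05, and of all 19441 windows tested 2 did (0.0103%), both higher at 1 d.p.i. At an unadjusted p under 0.05 the numbers were 1 of 35 and 388 of 19441 (2.0%). The 2 genes called, named after their values were seen, were Gm11361 and Ftl1-ps1, both with 0 fragments in uninjured M, and 0 genes were called when any 1 of the 4 libraries was left out. The median log2 change of the 35 genes on the scale of log2(coverage + 0.5) was 0.09 and that of all windows tested -0.06. Leaving out 1 library at a time moved the median of the 35 from -0.37 (without uninjured M) to 0.27 (without uninjured F), so it has no stable sign. The injured values both exceeded the uninjured ones at 3 of the 35 genes and at 8.79% of all windows, and both lay under them at 2 genes and at 14.8%.

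At most of the myelin genes the difference between conditions had opposite signs in the M and the F libraries. TSS coverage was higher at 1 d.p.i. in M and lower in F at 24 of the 35, higher in both at 4 and lower in both at 6. Of the 19406 other genes tested the shares with these signs were 52.6%, 14% and 21.3%, and higher in M with lower in F was the most frequent there too. The 3 genes furthest below their uninjured values in both sexes were Bcas1, Ppp1r14a and Plekhb1. Bcas1 had a log2 difference of -1.88 ± 0.79 (SE), with the values given above, and an unadjusted p of 0.0176 by limma that did not pass adjustment over all windows (adjusted p = 1.00). This Bcas1 window held 22 fragments over the SOX9 libraries. At the inner start of Bcas1 the conditions overlapped, and its body window had a log2 difference of 0.018 ± 0.23 (SE). Ppp1r14a had 12.1 (uninjured M), 12.4 (uninjured F), 6.71 (injured M) and 3.93 (injured F) times the library mean, a log2 difference of -1.17 ± 0.66 (SE), and its groups did not overlap. Plekhb1 had 8.53 (uninjured M), 4.58 (uninjured F), 4.78 (injured M) and 3.24 (injured F) times (-0.61 ± 0.68), with overlap.

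Furthest above their uninjured values in both sexes were Aspa, Enpp6 and Ndrg1. Aspa had a log2 difference of 1.1 ± 0.84 (SE) on the 9 fragments given above. Enpp6, a choline phosphodiesterase that marks newly forming oligodendrocytes, had 2.81 (uninjured M), 1.30 (uninjured F), 3.70 (injured M) and 3.02 (injured F) times the library mean, a log2 difference of 0.65 ± 0.73 (SE). Ndrg1 had 7.92 (uninjured M), 12.4 (uninjured F), 12.5 (injured M) and 14.3 (injured F) times, a log2 difference of 0.41 ± 0.66 (SE). At Enpp6 and Ndrg1 both injured values lay above both uninjured ones, by margins within 2 standard errors. All 35 adjusted p-values from limma in this window were 1.00 after rounding. The standard errors ran from 0.66 to 0.85, so a 2-fold difference lay within 2 standard errors at each of the 35 genes and could not be told from none.

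In the body window 0 of the 35 changed by limma at an adjusted p under 0.05 and 0 at an unadjusted p under 0.05, against 1 (0.00504%) and 774 (3.90%) of 19839 windows tested. The gene called was again Gm11361, higher at 1 d.p.i., and the number called ran from 0 (without either uninjured library) to 8 (without injured F) and 17 (without injured M). The median log2 change was 0.07 for the 35 genes and -0.03 for all windows, and without the uninjured M library the former was -0.11. The injured values both exceeded the uninjured ones at 9 of the 35 genes and at 12.4% of all windows. Both lay below at 3 of the 35 and at 14.2% of all windows. The 9 genes were Tspan2, Cd9, Enpp2, Enpp6, Ndrg1, Gpr37, St18, Prr5l and Lpar1, and none of them passed the test. Standard errors of the 35 genes ran from 0.17 to 0.46 in this window, and a gene without a call may still differ.

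Cd9 had the largest such difference, with 3.13 (uninjured M), 2.93 (uninjured F), 4.93 (injured M) and 4.44 (injured F) times the library mean, a log2 difference of 0.55 ± 0.29 (SE, unadjusted p = 0.0679 by limma). Tspan2, a tetraspanin of early myelin membranes, had 2.05 (uninjured M), 2.76 (uninjured F), 3.35 (injured M) and 2.98 (injured F) times, a log2 difference of 0.34 ± 0.25 (SE). Prr5l had 2.0 (uninjured M), 2.37 (uninjured F), 2.95 (injured M) and 2.82 (injured F) times, a log2 difference of 0.34 ± 0.23 (SE). The groups did not overlap in these 3 genes, and each difference was under 2 standard errors. Of the 4 genes lower at 1 d.p.i. in both sexes, the largest differences were those of Opalin, a membrane protein of oligodendrocytes, with 3.73 (uninjured M), 5.56 (uninjured F), 3.42 (injured M) and 3.95 (injured F) times (-0.28 ± 0.31), and Mog with 3.97 (uninjured M), 4.51 (uninjured F), 3.09 (injured M) and 3.77 (injured F) times (-0.27 ± 0.29). The third, Plekhb1, had 6.83 (uninjured M), 7.04 (uninjured F), 6.13 (injured M) and 5.66 (injured F) times (-0.22 ± 0.37). The groups overlapped at Opalin and did not at Mog, Plekhb1 and the fourth gene, Ugt8a, which had 1.93 (uninjured M), 2.12 (uninjured F), 1.87 (injured M) and 1.82 (injured F) times (-0.11 ± 0.20).

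Other lists were read in the same way at 1 d.p.i. The 20 astrocyte markers had 0 called by limma in either window, 0 (TSS) and 1 (body) at an unadjusted p under 0.05, and median log2 changes of 0.16 in the TSS window and 0.13 in the body window. The 12 lineage regulators had 0 called by limma, 0 at an unadjusted p under 0.05, and medians of -0.25 and -0.01. The microglial and macrophage genes, markers of cells known to respond within days, had 0 called by limma of 15, 1 and 2 at an unadjusted p under 0.05, and medians of 0.23 and 0.04. The precursor, synapse, ependymal, and endothelial and mural lists had 0 called by limma. Their median log2 changes in the TSS and body windows were 0.43 and -0.03, -0.18 and -0.16, -0.22 and -0.02, and 0.10 and -0.03, in that order. At an unadjusted p under 0.05 by limma, 1 of them passed, an endothelial or mural gene in the body window. Of all windows tested, 2.0% (TSS) and 3.90% (body) were under this p. The difference between these lists was not tested, and the part of cell composition in any of them was not tested.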

How the data were processed

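The authors demultiplexed the reads, mapped read pairs to mm10 with Bowtie2 2.5.4 and removed duplicates with Picard 3.4.0, per the submitters' processing notes and the study's methods. The deposited signal holds coverage of 8 libraries in whole numbers, not scaled for depth, in 20283253 stretches, and the step that wrote it is not given in the sources used here. Fragments were counted as rises of coverage. Genes, principal transcripts and exons are from GENCODE M21 on GRCm38, the build of mm10.

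Mean coverage of a window was divided by the library mean over chromosomes 1 to 19 and X. Windows with a mean of at least 0.25 over the 4 SOX9 libraries entered a fit by limma 3.58.1 (R 4.3.3) with a mean-variance trend, on log2(value + 0.5), which understates changes of low genes, and adjusted over all windows by Benjamini-Hochberg. Other values were computed with Python 3.11.15, numpy 2.4.6, pandas 2.3.3, scipy 1.17.1 and pysam 0.24.0. The fit was tested on simulated data. The pseudocount, filter, scaling, windows, depth, blocks, comparison genes and each library in turn were varied.

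Genes named with the value in each library are the 6 highest and 3 lowest in TSS coverage, the 4 highest and 2 lowest in body coverage, and in each window the 3 largest rises and 3 largest falls with the same sign in M and F. Others were singled out after their values were seen. The genes and lists were chosen with earlier results of these data known. M and F are different animals, so the letters do not pair libraries across conditions, while each control shares its nuclei sample with a SOX9 library.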

Additional observations from a re-analysis of the deposited data

Results flagged for a closer look

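The change at 1 d.p.i. over the myelin genes had opposite signs in the M and F libraries. In the TSS window the median log2 difference of the 35 genes, 1 d.p.i. minus uninjured, was 0.47 in M and -0.48 in F, a difference of 0.95. In the body window it was 0.25 in M and -0.21 in F, a difference of 0.46. All other protein-coding genes had medians of 0.39 in M and -0.51 in F in the TSS window and of 0.07 and -0.11 in the body window, so the opposite signs were not particular to myelin genes. The difference between M and F was not tested, since each sex has a single SOX9 library in each condition.

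In the TSS window 24 of the 35 genes were higher at 1 d.p.i. in M and lower in F and 1 the reverse, and in the body window 19 and 2. Of the other genes tested these shares were 52.6% and 10.2% in the TSS window and 41.5% and 20.9% in the body window. Among the genes named for their level or difference in the TSS window, those with opposite signs had these values of M minus F, in log2 units: Mbp (1.91), Cnp (1.21), Sirt2 (2.53), Trf (1.53), Qdpr (1.64), Tmem88b (0.65) and Prr5l (-2.10). Among those named for the body window they were: Cnp (0.83), Pllp (0.67), Tmem88b (0.45), Ppp1r14a (1.05) and Nkain2 (-0.27). Prr5l and Nkain2 are the exceptions in direction among these, with the F difference higher. Of all 35 genes, named after their values were seen, the widest splits were those of Opalin in the TSS window (2.55 in M and -0.60 in F) and Trf in the body window (0.95 in M and -0.17 in F), and coverage of the Opalin window in uninjured M was under the limit of 3 fragments. None of these differences was tested.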

How the results depend on the processing

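Of 143 comparisons with an alternative, 101 stayed within the tolerance (1 SD between libraries for a value, 1.5 times for a count, the 95% counting interval for a ratio to controls) and 42 moved; the cause was not tested. The tolerance lets the median log2 change in the TSS window, which was never called, turn its sign. The number of myelin genes changed at 1 d.p.i. was 0 in both windows under every alternative run, which is no sign of stability, since a count of 0 says nothing of differences short of the threshold. The number of all genes changed in the TSS window, 2, was 1 with a pseudocount of 1 or windows at the 5′ end of the gene, 11 (10 higher) with equal medians, and 0 with trimmed-mean scaling, no filter, thinned libraries, all 8 libraries in the fit, windows of 500 bp and any 1 library left out. In the body window, 1 became 6 with trimmed-mean scaling, 38 with a filter at 1, 0 with equal medians, thinned libraries, all 8 libraries, no mean-variance trend, the gene body alone or without the TSS window, and 0 to 17 with 1 library left out, where the lone sample is assumed to vary like the others. With the letters M and F as a block, 0 genes were called in the TSS window and 29 in the body window, none of them a myelin gene. Libraries with the same letter deviated from their group means with r = -0.10 and r = -0.28 across genes, so the letters do not pair them.

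The median log2 change of the myelin genes ran from -0.37 to 0.27 (TSS) and from -0.11 to 0.18 (body) with 1 library left out. Their median TSS coverage, 9.81, was 6.66 in windows of 2 kb to each side. Their median percentile was 71.5 in windows of 500 bp and 75.6 to 79.9 with 1 library left out (TSS), and in the body window 89.3 among genes within a factor of 1.1 in length, 84.4 among all other genes and 86.1 to 89.2 with 1 library left out. SOX9 over control in uninjured cords was 0.784 for M and 1.05 for F against their own controls. In TSS windows it was 0.807 (0.536 for M and 1.08 for F against their own, and 1.38 and 0.788 at 1 d.p.i.). With unshared control fragments it was 1.21, and 1.87 at 1 d.p.i. This last setting was chosen after seeing the data. Its filter acts on the controls alone and can raise the ratio, so it cannot show an excess over control. Thinned to their controls, SOX9 libraries exceeded them at 0 genes and 0 myelin genes, and with the nuclei sample as a block at 3363 genes and 0 myelin genes.

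Depth limits the TSS windows of low genes and every control value.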
